A study of Mus musculus with 18 samples.

Results

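Prospermatogonia lacking Tet1 were compared with wild-type prospermatogonia by the breadth, presence and relative strength of their H3K4me3 peaks. Of the 18 samples of the series, 6 enter the comparison, namely the H3K4me3 peak lists of 3 Tet1-/- replicates (KO1 to KO3) and 3 Tet1+/+ replicates (WT1 to WT3). All came from Oct4-GFP+ male germ cells at E17.5, late in gestation, which had been frozen before use, and each library started from 4000 nuclei. The mark was mapped by CUT&RUN, in which an antibody (here Cell Signaling Technology 2729) directs a nuclease to cut out the chromatin it binds, with a CUTANA kit. The labels call the replicates biological and place all of them in batch 1. The sources used here do not give the mouse strain, the part of Tet1 that is deleted, or whether a replicate pools embryos. A further genotype, Tet1HxD/HxD (3 H3K4me3 libraries), entered 1 alternative fit only, and the 9 IgG libraries were not analysed here. Every list was cut to its 69901 peaks with the smallest q-value, the number in the shortest list, and the cut lists were compared over 21887 coding genes and over 135045 regions formed by merging the 6 lists.

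H3K4me3 is laid down by the SETD1 and KMT2 methyltransferases, and marks the promoters of active genes and, more generally, promoters rich in unmethylated CpG dinucleotides. TET1 binds CpG-rich DNA, oxidises methylated cytosine, and also acts without its catalytic activity through partners such as SIN3A, OGT and Polycomb. In prospermatogonia DNA methylation is set up anew by DNMT3A with its cofactor DNMT3L, and both contact histone H3 through a domain that does not bind when lysine 4 is methylated.

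Promoters that were broader and narrower in KO differed in CG content as classes, as given below, and 6 chosen examples are shown. Each line gives the 250 bases before the annotated start, 5′ to 3′ on the gene's strand, from RefSeq with GRCm38.p6 coordinates, with every CG in capitals. The first 3 are of genes whose breadth lay higher in KO than in WT, among those with the smallest p. The last 3 are of genes whose breadth lay lower. Of these, Ugt2a3 and H2-M10.1 were among those with the smallest p, and Aoc1 was among the promoters without a peak in any KO library. Other genes with a small p are not shown, and some promoters gained in KO hold few CG.
Suv39h1 (chrX:8074362-8074611, minus strand): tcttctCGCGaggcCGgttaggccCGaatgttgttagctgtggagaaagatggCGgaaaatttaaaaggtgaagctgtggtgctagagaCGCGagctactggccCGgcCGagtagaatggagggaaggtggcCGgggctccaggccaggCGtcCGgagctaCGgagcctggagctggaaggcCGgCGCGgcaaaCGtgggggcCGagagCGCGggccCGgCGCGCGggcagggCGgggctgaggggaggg
Il3ra (chr14:14346245-14346494, plus strand): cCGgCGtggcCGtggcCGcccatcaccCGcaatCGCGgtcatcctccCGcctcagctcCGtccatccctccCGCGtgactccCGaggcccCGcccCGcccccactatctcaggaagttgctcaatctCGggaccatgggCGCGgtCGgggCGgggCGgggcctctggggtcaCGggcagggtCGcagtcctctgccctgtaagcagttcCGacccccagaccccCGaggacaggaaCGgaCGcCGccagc
Rps24 (chr14:24490503-24490752, plus strand): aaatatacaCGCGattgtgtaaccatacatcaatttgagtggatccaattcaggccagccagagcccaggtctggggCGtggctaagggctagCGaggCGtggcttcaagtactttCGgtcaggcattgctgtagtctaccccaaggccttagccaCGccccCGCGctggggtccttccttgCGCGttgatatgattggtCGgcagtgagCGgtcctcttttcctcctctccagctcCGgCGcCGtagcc
Ugt2a3 (chr5:87337196-87337445, minus strand): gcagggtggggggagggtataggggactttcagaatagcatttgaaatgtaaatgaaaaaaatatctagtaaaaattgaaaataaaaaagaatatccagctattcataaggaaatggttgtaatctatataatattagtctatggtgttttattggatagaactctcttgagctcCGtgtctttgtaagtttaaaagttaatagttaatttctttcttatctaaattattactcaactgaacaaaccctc
Aoc1 (chr6:48904736-48904985, plus strand): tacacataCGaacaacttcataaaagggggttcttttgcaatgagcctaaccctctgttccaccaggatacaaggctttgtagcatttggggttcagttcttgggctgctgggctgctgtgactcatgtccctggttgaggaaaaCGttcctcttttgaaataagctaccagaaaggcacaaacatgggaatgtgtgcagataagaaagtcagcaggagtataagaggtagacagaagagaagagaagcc
H2-M10.1 (chr17:36326151-36326400, minus strand): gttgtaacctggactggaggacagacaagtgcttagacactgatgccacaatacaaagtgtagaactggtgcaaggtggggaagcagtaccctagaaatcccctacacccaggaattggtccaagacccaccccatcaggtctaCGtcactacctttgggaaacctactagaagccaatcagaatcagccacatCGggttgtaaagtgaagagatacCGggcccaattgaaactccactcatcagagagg

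The stretches before Suv39h1, Il3ra and Rps24 hold 25, 27 and 16 CG dinucleotides, and those before Ugt2a3, Aoc1 and H2-M10.1 hold 1, 2 and 3. With the 50 bases after the start included, the counts are 37, 35 and 21 against 2, 4 and 3. CG reads the same on both strands, so 1 search covers both. Promoter sequences of 300 bases were matched to 17492 of the 21887 coding genes (79.9%); of these, 94.9% hold a CG, 35.5% hold 21 or more and 24.1% hold 3 or fewer. The other 4395 genes were measured at a gene end that may be the wrong one. Of several annotated starts, or of the gene ends, the one with most covered bp within 1 kb over the 6 lists before the cut was used. The choice thus came from the lists compared, which covered 76.6 to 109 Mb in WT and 50.5 to 73.0 Mb in KO. Its effect on the results was not tested.

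Markers of the labelled cell type were present, although markers of other fetal testis cells were too. Of 15 germ cell markers, 8 had a peak within 1 kb of the start in all 6 libraries, and 1, the piRNA gene Piwil2, had none in any. Pou5f1, whose product is Oct4, had peaks covering 1861, 1636 and 2270 bp within 5 kb of its start in WT1, WT2 and WT3 and 3022, 2619 and 4996 bp in KO1, KO2 and KO3. All KO libraries lay above all WT libraries, without passing the test described below (limma adjusted p = 0.298). The same held for Dazl, an RNA-binding protein of germ cells, at 923, 1675 and 2441 bp in WT and 3141, 2580 and 3034 bp in KO (adjusted p = 0.296). Of the 15 germ cell markers 6 lay without overlap above WT and 1, Dnmt3l, below, beside 9.14% and 5.46% of all coding genes. Piwil4 averaged 930 bp in WT and 224 bp in KO, with overlap. Among markers of other cells, 8 of 15 Sertoli, 7 of 17 Leydig and interstitial and 5 of 14 endothelial and blood genes had a peak in every library. Cst9 (Sertoli), Cyp17a1 and Star (Leydig) and Ptprc, Csf1r and Adgre1 (blood) had 0 bp in all 6. Summed over a list, breadth was 20901 to 28043 bp in WT and 26818 to 42574 bp in KO for germ cell, 39410 to 41763 and 30376 to 45370 bp for Sertoli, 23582 to 40538 and 19558 to 35719 bp for Leydig and interstitial, and 14550 to 19043 and 9686 to 15811 bp for endothelial and blood markers. The genotypes overlapped in all 4 sums. A promoter mark is not RNA, and these lists cannot measure how many other cells each sample held.

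The targeted gene kept its promoter peak. Tet1 had 1963, 2415 and 3315 bp in WT and 2732, 3331 and 4851 bp in KO, overlapping ranges that differed by 1074 ± 604 bp (SE; limma adjusted p = 0.460). A promoter peak can remain when part of a gene is deleted, so it says nothing on the allele.

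The libraries differed in ways that touch every result. The deposited lists held 83586 to 128701 peaks in WT and 69901 to 80232 in KO, so the cut removed many peaks from WT3 and none from KO3. In the deposited lists every library reached down to a −log10 q of about 2. After the cut, the lowest −log10 q was 6.43, 4.94 and 11.9 in WT and 2.32, 4.27 and 2.00 in KO, without overlap. KO1 stood apart, with a median peak of 444 bp and 49.8 Mb covered in all, against 672 and 771 bp and 69.5 and 69.3 Mb in KO3 and KO2 and 872 to 1057 bp and 69.6 to 83.0 Mb in WT. Breadth over the tested genes correlated at a Spearman rho of 0.575 to 0.635 between WT libraries, 0.754 to 0.839 between KO libraries and 0.513 to 0.692 across genotypes. For promoter rank the same ranges were 0.103 to 0.129, 0.220 to 0.262 and 0.0271 to 0.0704. The part of these library differences in the results below was not tested.

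Covered sequence lay more at promoters and less between genes in KO. Promoter regions, those within 1 kb of a coding gene's start, took 32.0%, 33.6% and 33.1% of the covered bp in WT and 44.3%, 41.1% and 45.0% in KO, 32.9% ± 0.795 against 43.5% ± 2.11 (SD, n = 3 each). Intergenic regions took 47.6%, 46.7% and 46.6% in WT and 34.2%, 38.2% and 34.0% in KO, 47.0% ± 0.575 against 35.5% ± 2.37. Neither class overlapped between the genotypes, and gene bodies stayed at 19.7% to 20.3% in WT and 20.7% to 21.5% in KO. The promoter difference of 10.6 percentage points was 12.8 with full lists, 17.4 with lists cut to 34950 peaks, 11.3 with lists cut by fold enrichment and 14.1 with lists cut to the same covered length, and the intergenic difference of −11.5 points lay between −15.2 and −12.3 under the same 4 settings. The small gene body difference of 0.931 points turned to −2.17 at 34950 peaks and −0.693 at equal covered length.

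**Figure D1:**
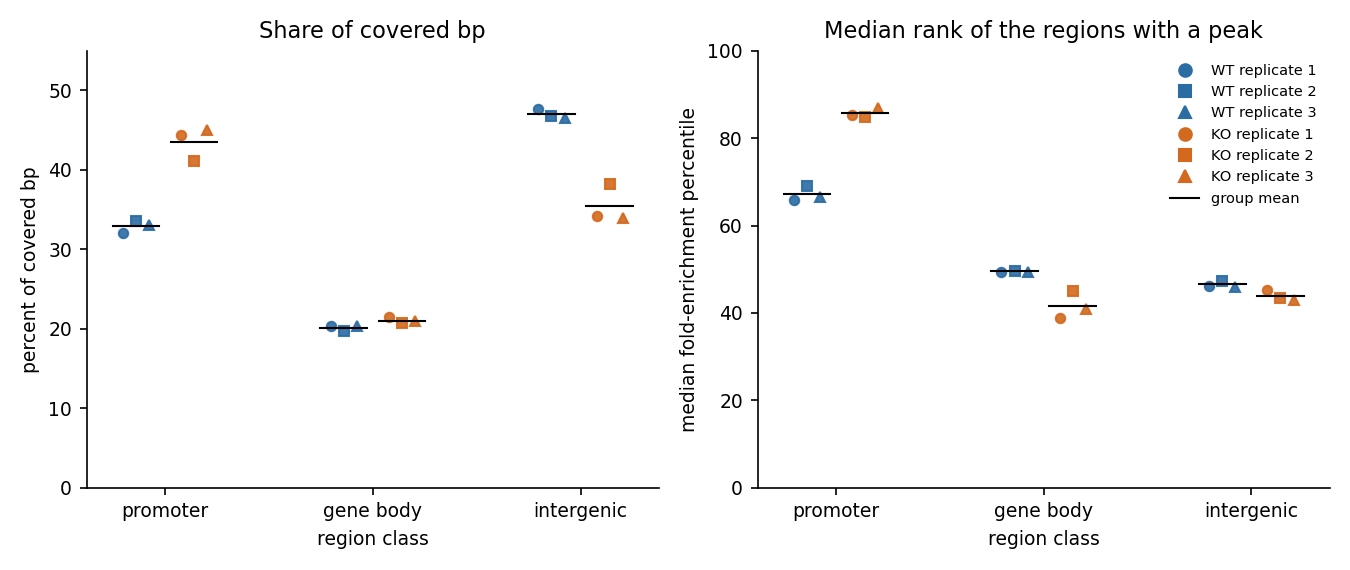
Percent of covered bp (left) and median fold enrichment percentile (right) of promoter, gene body and intergenic regions, 1 point per cut list, WT and KO side by side. KO lists lie between 41.1% and 45.0% of covered bp at promoters, above all WT lists, and between 34.0% and 38.2% in intergenic regions, below all WT lists.

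In base pairs, the intergenic class carried the difference. It covered 33.8, 32.6 and 38.6 Mb in WT and 17.02, 26.5 and 23.7 Mb in KO, 0.639 times as much on average, in 37015, 36998 and 37511 regions against 31692, 34299 and 32875. The difference of −12.6 Mb was −20.8 Mb with full lists, −7.46 Mb at 34950 peaks and −6.75 Mb at equal covered length. Promoters covered 22.7, 23.4 and 27.5 Mb in WT and 22.1, 28.5 and 31.3 Mb in KO, which overlap. Gene bodies covered 14.4, 13.7 and 16.9 Mb against 10.7, 14.4 and 14.6 Mb, also overlapping, while the number of gene body regions was larger in every KO library (16832 to 19274 against 14232 to 14943). Outside promoters the KO peaks were shorter. The median gene body region covered 894, 862 and 1031 bp in WT and 374, 701 and 538 bp in KO, and the median intergenic region 834, 801 and 954 bp against 387, 653 and 562 bp. At promoters the medians overlapped, at 1547 to 1839 and 1511 to 2038 bp. The gene body region numbers turned with full lists, at 23012 in WT and 19795 in KO on average, and the intergenic number was 499 higher in KO at equal covered length.

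The relative strength of promoter peaks was higher in KO. Each peak was ranked by its fold enrichment within its cut list, as a percentile in which 100 is the strongest. The median promoter region stood at percentile 65.9, 69.1 and 66.5 in WT and 85.3, 84.9 and 86.8 in KO. Gene body regions stood at 49.4, 49.6 and 49.5 in WT and 38.8, 45.0 and 40.8 in KO, and intergenic regions at 46.2, 47.4 and 45.9 against 45.4, 43.5 and 43.0. No class overlapped. In a family of 10 such comparisons (region number, covered Mb and rank in 3 classes, and marked genes), the exact two-sided permutation test gave p = 0.1, the smallest that 3 against 3 allows, for each of the 6 without overlap (adjusted p = 0.167). Coding genes with a promoter peak overlapped, at 14193, 14415 and 14763 in WT and 14608, 15354 and 15352 in KO, and full lists turned their order (15686 and 15185 on average).

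Among intergenic regions the loss of covered sequence grew with the distance from genes. Those 1 to 5 kb from the nearest coding start covered 0.861 times as much in KO as in WT on average. The ratio was 0.799 at 5 to 10 kb, 0.755 at 10 to 50 kb, 0.682 at 50 to 100 kb, 0.571 at 100 to 500 kb and 0.339 beyond 500 kb. In that farthest class, gene deserts, WT libraries covered 4.63, 4.61 and 4.96 Mb and KO libraries 1.41, 2.07 and 1.33 Mb, so that the highest KO library was far below the lowest WT library. The mean of the class was lower in KO too with full lists (6.21 and 1.71 Mb on average) and with lists of equal covered length (2.63 and 0.857 Mb).

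**Figure D2:**
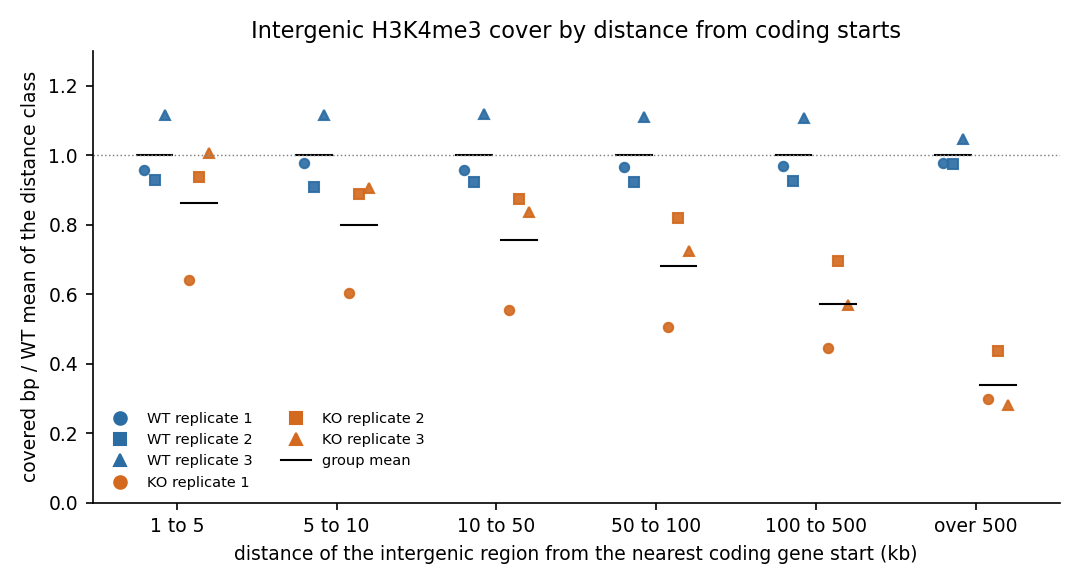
Covered bp of intergenic regions by distance to the nearest coding gene start, each library divided by the WT mean of its distance class. KO libraries fall with distance, to an average of 0.339 beyond 500 kb.

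Presence differed between the classes as well. Of 21581 intergenic regions with a peak in every WT library, 2417 (11.2%) had none in any KO library, against 466 of 8858 gene body regions and 59 of 11933 promoter regions. In reverse, 286 of 12554 intergenic, 224 of 7002 gene body and 82 of 13406 promoter regions in every KO library had no peak in WT. Of all regions in a class, the lost ones were 3.08% (intergenic), 1.16% (gene body) and 0.363% (promoter), and the gained ones 0.364%, 0.556% and 0.505%. By distance, the share of every-WT intergenic regions absent from KO was 6.13% at 1 to 5 kb, 5.62% at 10 to 50 kb, 12.6% at 100 to 500 kb and 28.2% (833 of 2959) beyond 500 kb. The lost intergenic regions were of middling strength, with median percentiles of 42.3 to 46.2 in WT against 58.2 to 59.7 for all every-WT intergenic regions, and their median distance from a coding start was 272 kb. Full lists gave 5515 lost and 102 gained intergenic regions, equal covered length gave 1202 and 353, and leaving out 1 library gave 3058 to 4876 lost and 481 to 1123 gained, the highest counts being those without KO2 (lost) and KO1 (gained).

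Single regions illustrate these classes. The region chr13:86922016-86925276, between Cox7c and Edil3, had 2750, 3226 and 2778 bp in WT and 264, 762 and 386 bp in KO (limma adjusted p = 0.0814), so a shorter peak remained in each KO library. The next region, chr2:108420495-108423352 between Kcna4 and Mettl15, had 2598, 2604 and 2851 bp against 651, 673 and 647 bp. In gene bodies, a region inside Cntnap2, a neuronal adhesion gene (chr6:46103031-46104978), covered 1246, 1948 and 1251 bp in WT and none in KO. Of regions in every KO and no WT library, the one with the most covered bp outside promoters lay between Dlk1 and Rtl1 in an imprinted cluster (chr12:109527294-109530501), with 1251, 248 and 3208 bp in KO (adjusted p = 0.181), unequal among the replicates. The next, at chr3:95673528-95676042 between Mcl1 and Adamtsl4, covered 739, 730 and 2515 bp.

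No single region or promoter passed the tests with the 6 libraries. Limma, a linear model over all features with Benjamini-Hochberg adjustment, called 0 of 64111 regions for breadth (smallest adjusted p = 0.0814) and 0 of 24980 for rank. At an unadjusted p under 0.05, region breadth was lower in KO for 10990 (17.1%) and higher for 2305 (3.6%), and rank lower for 792 (3.17%) and higher for 2339 (9.36%). By class, 24.1% of 34578 intergenic regions were narrower and 1.45% broader at that level, 13.9% and 2.58% of 14718 in gene bodies, and at promoters 592 regions were narrower and 1423 broader (9.61%) of 14815. The adjusted calls depended on the lists: full lists gave 6156 narrower and 192 broader regions, 34950 peaks 875 and 786, all 9 libraries 715 and 382, no filter on presence 861 and 512, and centring each library on its mean 21 and 94. Equal covered length and the cut by fold enrichment gave 0. On simulated lists with known differences of up to 2000 bp in 200 regions the region test recovered 0%, so a count of 0 says little here.

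At promoters the balance was the reverse, with more genes broader in KO than narrower. Breadth is the covered bp within 5 kb of a gene's start. It was tested for 15486 genes with a peak within 1 kb in at least 3 of the 6 lists, and limma called 0 (smallest adjusted p = 0.0813). A gene marked in a single genotype passes this filter through that genotype alone, so its p is descriptive. At an unadjusted p under 0.05, 1548 (10%) were broader and 514 (3.32%) narrower, with a median difference of 207.7 bp. For the rank of promoter peaks 0 of 11570 genes were called (smallest adjusted p = 0.312), with 1762 (15.2%) higher and 86 (0.743%) lower at an unadjusted p under 0.05 and a median difference of 17.999 percentile points. Over all 21887 coding genes, every KO library lay above every WT library in breadth for 2001 (9.14%) and below for 1195 (5.46%), and in rank, over 11567 coding genes, for 3060 (26.5%) and 217 (1.88%). The breadth shares are diluted by 5512 coding genes without a promoter peak in any library. The balance moved with the scale. Full lists gave 1411 genes above and 1736 below, equal covered length 3291 and 747, and leaving out KO1 4854 and 1297, where a count without overlap can only stay or rise because fewer libraries have to be separated. Centring each library turned the unadjusted counts to 1155 broader and 1416 narrower.

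Other fits did call promoters. With all 9 H3K4me3 libraries in the fit, each list cut to 49624 peaks, KO promoters rose in breadth for 367 of 15399 genes (2.38%) and fell for 27 (0.175%) at an adjusted p under 0.05 by limma. At 34950 peaks the counts were 803 and 29, at equal covered length 756 and 28, with the cut by fold enrichment 2 and 0, and without WT1 1 and 0; no other fit gave a call. On simulated data the 6-library test recovered 0% of genes with 1000 bp taken from KO, 34.5% with 2000 bp and 68.5% with 3000 bp. Values below 0 were set to 0, so the mean estimated differences were −1031, −1730 and −2211 bp. Only reductions were simulated.

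Among single genes, those with the smallest p for higher breadth had little or no peak in WT. Il3ra, a subunit of the interleukin 3 receptor, had 0 bp in every WT library and 2114, 2096 and 2435 bp in KO (limma adjusted p = 0.0813). It thus entered the test through its KO peaks alone. Polr3a, a subunit of RNA polymerase III, and Rps24, a ribosomal protein, are neighbours with the same covered bp within 5 kb of their starts. These were 1246, 826 and 979 bp in WT and 3890, 3604 and 4522 bp in KO, a difference of 2988 ± 399 bp (SE, limma adjusted p = 0.0813). Within 1 kb of the Rps24 start no WT library had a peak. Gphn encodes gephyrin, which anchors inhibitory receptors at synapses, and had 621, 801 and 477 bp in WT and 2330, 3131 and 3396 bp in KO (adjusted p = 0.137). Suv39h1, an X-linked enzyme that methylates histone H3 lysine 9, had 293, 0 and 0 bp in WT and 1774, 1779 and 2109 bp in KO, and Nup62cl with Dnaaf6b on the X chromosome 0, 0 and 423 bp and 1720, 2003 and 2087 bp (adjusted p = 0.137 each). None of these genes overlapped between the genotypes, and all of them passed in the 9-library fit (adjusted p = 0.0130 to 0.0484).

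At the other end, the genes with the smallest p for lower breadth lost most or all of their covered sequence in KO, without passing in this fit. Slc9c1, an ion exchanger of sperm, and its neighbour Gm17783 had the same covered bp within 5 kb of their starts. These were 1968, 2628 and 2974 bp in WT and 422, 0 and 418 bp in KO, a difference of −2243 ± 361 bp (SE, limma adjusted p = 0.137). H2-M10.1, a non-classical histocompatibility gene, had 1577, 1499 and 1324 bp in WT and 0 bp in every KO library, and so entered the test through WT alone. Tex13c1 had 1624, 2066 and 1842 bp against 546, 0 and 0 bp. No KO library reached the lowest WT library in any of them. For Il18r1, an interleukin 18 receptor subunit, the values were 2083, 2235 and 2631 bp against 373, 914 and 293 bp, and for Ugt2a3, an enzyme that couples glucuronic acid to lipids and drugs, 2271, 1648 and 1762 bp against 0, 385 and 399 bp (adjusted p = 0.137 for all). Gm17783 with Slc9c1, H2-M10.1 and Il18r1 also passed in the 9-library fit (adjusted p = 0.0165, 0.0263 and 0.0302), Tex13c1 and Ugt2a3 did not.

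**Figure D3:**
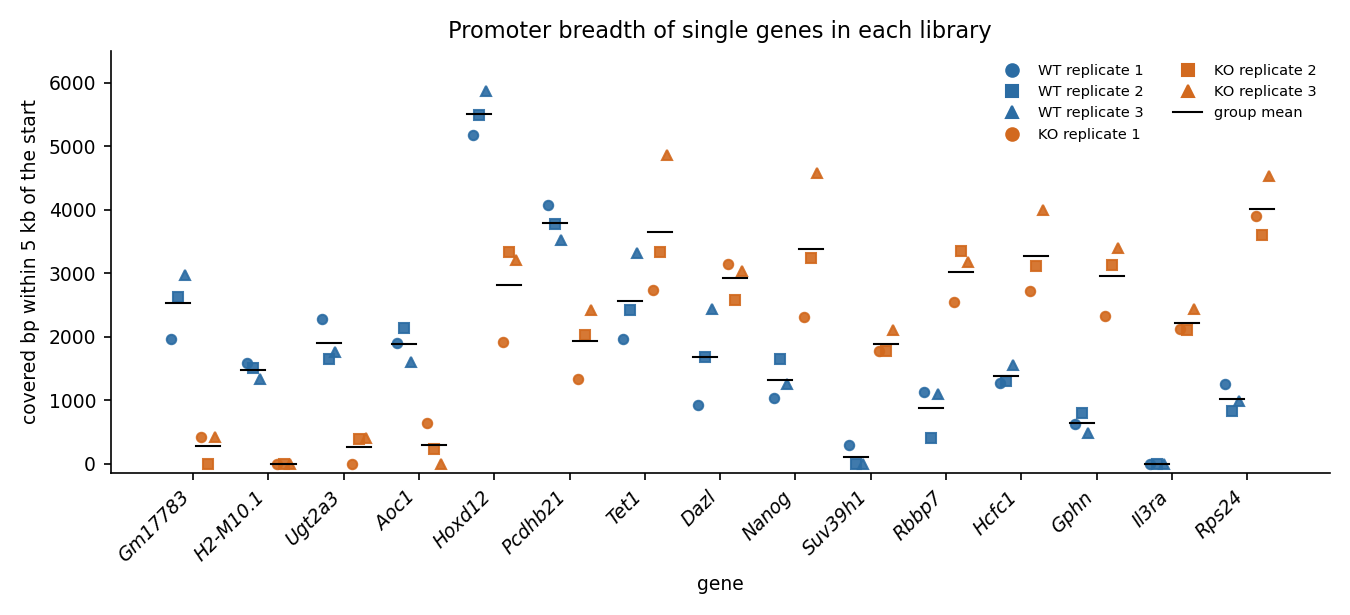
Covered bp within 5 kb of the start of 15 genes in each of the 6 cut lists, WT and KO points side by side. Il3ra is at 0 bp in every WT list and H2-M10.1 at 0 bp in every KO list, while the Tet1 ranges overlap.

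Rank singled out other genes, none of which passed (limma adjusted p = 0.312 each). The promoter peak of Rbm11, an RNA-binding splicing factor, stood at percentile 85.8, 88.0 and 93.7 in WT and 0.810, 10.4 and 20.2 in KO. F2 (prothrombin), Clu (clusterin), Ubqln5 and H60c also had lower ranks in KO. In the other direction, the peak shared by Med29, a Mediator subunit, and Paf1, an elongation factor, stood at 26.7, 1.15 and 2.65 in WT and 96.9, 95.8 and 100 in KO. Swi5 with Golga2, Rbm15, Zfp292 and Nradd followed. Ranks of WT libraries agreed little with each other over all genes, as given above.

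CpG content ordered the promoters. Of the 4155 genes with 26 or more CG in their 300 bases (23.8% of all promoters with a sequence), 749 (18.03%) lay without overlap above WT in breadth and 78 (1.88%) below. Of the 4223 genes with 0 to 3 CG, 34 (0.805%) lay above and 265 (6.28%) below; 3429 of them had no promoter peak in any library, against 17 in the highest class, so shares of all genes in the lowest class are diluted. The share above rose through the classes between, at 2.85% for 4 to 7, 6.69% for 8 to 12, 11.2% for 13 to 18 and 14.4% for 19 to 25 CG, and the share below in those classes, of which the 4 to 7 class had 895 never marked genes, was 9.78%, 10.3%, 3.82% and 3.505%. Mean breadth in the lowest class was 300, 287 and 349 bp in WT and 191, 270 and 261 bp in KO, without overlap. In the highest class it was 1820, 1917 and 2270 bp against 2052, 2490 and 2834 bp, and 92.1%, 93.9% and 94.8% of its genes were marked in WT against 98.7%, 99.4% and 99.6% in KO. Counts were higher above than below in the highest class, and the reverse in the lowest, also with full lists (541 above and 105 below in the highest class, 19 and 413 in the lowest) and without KO1 (1665 and 89, 112 and 287). In the 9-library fit 150 of 4136 genes in the highest class rose and 0 fell, and 4 of 436 rose and 9 fell in the lowest.

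**Figure D4:**
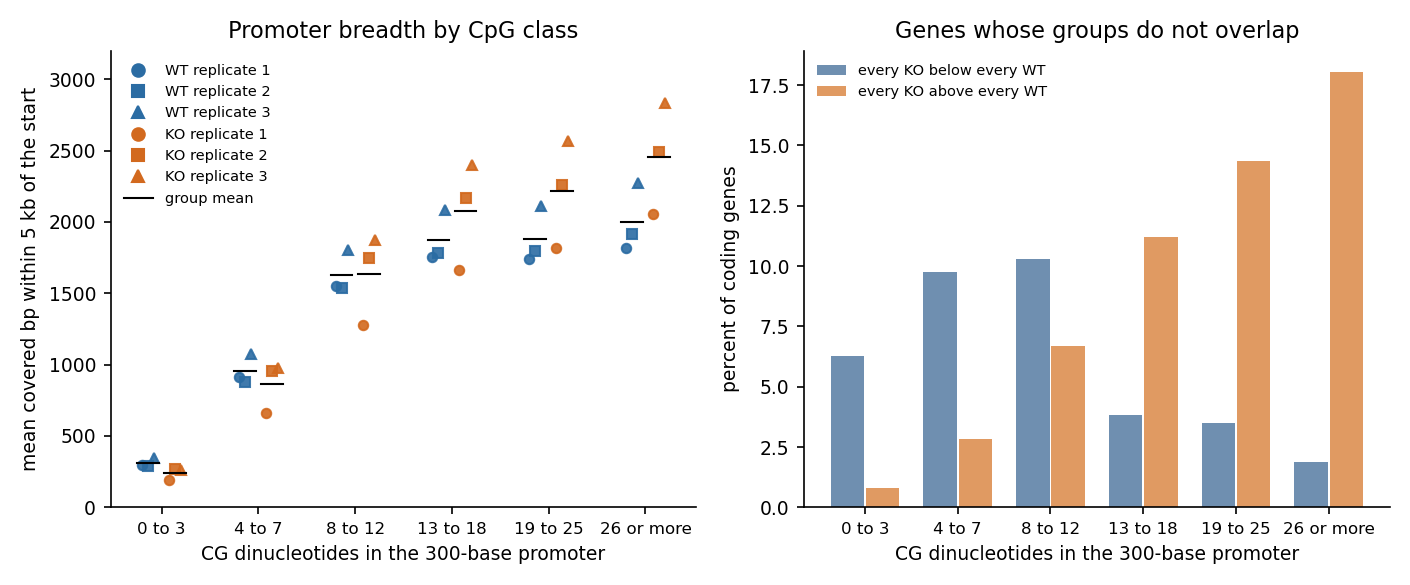
Mean covered bp per gene in each library (left) and percent of genes whose genotypes do not overlap (right) by the number of CG in the promoter's 300 bases. The share above WT goes from 0.805% in the lowest class to 18.03% in the highest, and the share below from 6.28% to 1.88%.

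Promoters lost or gained altogether followed the same split. A peak within 1 kb of the start was present in every WT and no KO library for 62 of the 12378 coding genes marked in every WT library (0.501%), and in every KO and no WT library for 68 of the 14114 marked in every KO library (0.482%). Of all 21887 coding genes these are 0.283% and 0.311%. The median number of CG was 3 in the lost promoters with a sequence (50 genes), 16 in the gained (49) and 14 in all 17492. Within 5 kb, 33 of the 62 had 0 bp in every KO library and 41 of the 68 had 0 bp in every WT library, and the other 29 and 27 had some covered sequence nearby. The lost promoters with the broadest WT signal were those of Gm17783, Gm51571, Alppl2, Ankfn1, Ugt2a3, Aoc1, Pla2g3, Prok1, Gm15501 and Tm4sf4. Aoc1, a histamine-degrading amine oxidase, had 1894, 2129 and 1602 bp in WT and 631, 225 and 0 bp in KO, and Tm4sf4, a tetraspan membrane protein, 1491, 1702 and 1431 bp against 377, 0 and 0 bp. The gained promoters with the broadest KO signal were those of Kcnj14, Rps24, Lefty1, BC028528, Esx1, Csnk1a1, Apoa5, Mvp, Il3ra and Pcsk1n. Esx1, an X-linked homeobox gene of placenta and testis, had 653, 1447 and 1144 bp in WT and 1724, 2542 and 3916 bp in KO. Not all gained promoters are CpG-rich: those of Mvp, Apoa5 and BC028528 hold 3, 4 and 5 CG. Kcnj14, Lefty1, Ankfn1, Csnk1a1 and Pla2g3 were measured at a gene end. Full lists gave 108 lost and 14 gained promoters, 34950 peaks 48 and 790, equal covered length 35 and 613, and leaving out 1 library 76 to 147 and 80 to 179.

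The X chromosome contributed more than its share of broader promoters. Of 966 X-linked coding genes 154 (15.9%) lay without overlap above WT and 19 (1.97%) below, against 1846 (8.93%) and 1175 (5.69%) of 20665 autosomal genes. In the 9-library fit 61 of 543 X-linked promoters rose (11.2%) and 1 fell, against 306 (2.06%) and 26 of 14845. Marked X-linked genes numbered 387, 395 and 451 in WT and 466, 542 and 570 in KO, without overlap, and 26 X-linked promoters were gained (2.69%, against 0.203% of autosomal ones). Within promoters of like CpG content the chromosomes still differed: among genes with 26 or more CG 45.5% of 77 X-linked and 17.51% of 4078 autosomal promoters lay above WT. The X chromosome took 1.92%, 1.68% and 2.101% of covered promoter bp in WT and 2.30%, 2.69% and 3.03% in KO, while its share of gene body and intergenic bp overlapped between genotypes. With full lists, however, marked X-linked genes numbered 541 in WT and 532 in KO on average, 4 promoters were gained, and 94 lay above WT. The X-linked counts therefore moved with the point at which weak peaks were left out.

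Lists built around the enzymes that write and erase the mark were among those with most promoters above WT. The list of KMT2 and SETD1 complexes also holds Bptf, which is not a subunit of them, and the H3K4 demethylase list also holds the cofactor gene Rcor2. Of the 25 genes of the first list 10 lay without overlap above WT and 0 below. Of the 9 genes of the second the counts were 4 and 0, beside 9.14% and 5.46% of all coding genes. The median differences were 870 and 1298 bp, beside 208 bp for all tested coding genes. Hcfc1, a shared subunit of these complexes and partner of OGT, had 1271, 1305 and 1550 bp in WT and 2709, 3109 and 4000 bp in KO (limma adjusted p = 0.141). Bptf, a reader of H3K4me3, had 1207, 808 and 1293 bp against 2597, 3365 and 5074 bp (0.141), and Kmt2c, a methyltransferase, 2033, 2203 and 3128 bp against 4087, 3993 and 4602 bp (0.181). Every KO value of these 3 genes exceeded every WT value. Kdm5c, an X-linked demethylase, had 397, 0 and 0 bp in WT and 1068, 1597 and 2570 bp in KO (0.161), followed by Rcor2 and Kdm1b. Men1, the menin subunit, had the smallest p in the other direction, at −319 ± 447 bp (SE), a sign that turned without KO1 or WT3. With all 9 libraries 3 of 24 genes in the KMT2 and SETD1 list rose, Hcfc1 and Bptf among them, and Kdm5c among 9 genes in the demethylase list.

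TET1's partners and other chromatin groups were placed alike. The partner list holds SIN3, HDAC, OGT and NuRD genes and also Nanog. Of its 29 genes 8 lay above WT and 0 below (median difference 1071 bp). Of 36 Polycomb genes the counts were 11 and 0 (927.5 bp), of 22 histone acetyltransferases 7 and 0 (765 bp) and of 25 H3K9 methylation genes 7 and 0 (451 bp). The lists share members: Hcfc1 is also in the KMT2 and SETD1 list, Rbbp7 in the Polycomb list and Nanog in the core pluripotency list. Rbbp7, a histone-binding subunit of NuRD, SIN3 and Polycomb complexes, had 1121, 403 and 1092 bp in WT and 2546, 3347 and 3176 bp in KO (limma adjusted p = 0.137), and Ing1, a SIN3 subunit that reads H3K4me3, 2591, 1937 and 1509 bp against 3498, 4159 and 4322 bp (0.144). Both were without overlap. Bmi1 and Jarid2, of Polycomb complexes 1 and 2, had differences of 2162 ± 597 and 2450 ± 707 bp (SE), and the acetyltransferases Ncoa1, Ep300 and Kat6a 1769 ± 364, 1518 ± 400 and 1466 ± 440 bp. After Suv39h1, the H3K9 list was led by Cbx3 and Ehmt2. The members with the smallest p in the other direction differed by less than their SE, with Sin3b at −74.7 ± 349, Phf19 at −249 ± 444, Kat6b at −96.0 ± 450 and Zfp57 at −247 ± 395 bp, and each of these signs turned under at least 1 other setting or left-out library. With all 9 libraries 5 of 29 partner genes, 5 of 36 Polycomb, 1 of 22 acetyltransferase and 1 of 25 H3K9 genes rose and none fell. Hcfc1, Rbbp7 and Nanog, each in a further list too, were among the partner genes that rose. The number above WT was 15, 22, 13 and 14 without KO1, and 7, 7, 7 and 6 with full lists.

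Genes of the DNA methylation machinery were mixed. Of 30 genes 2 lay above WT (6.67%) and 4 below (13.3%), beside 9.14% and 5.46% of all coding genes. Their median difference was nonetheless 465 bp, beside 208 bp for all tested coding genes. At an unadjusted limma p under 0.05, 4 were broader and 0 narrower. Dnmt3l had 1625, 1292 and 1435 bp in WT and 1096, 1055 and 1241 bp in KO (limma adjusted p = 0.665), and Uhrf1, which brings DNMT1 to replicated DNA, 2402, 2494 and 2552 bp against 2138, 2049 and 2226 bp (0.684). Both lay below WT in each KO library by small margins, −320 ± 302 and −345 ± 346 bp (SE). Dnmt3a, the de novo enzyme, had 3475, 3121 and 3299 bp against 3152, 3055 and 3756 bp (0.990), and Dnmt1, the maintenance enzyme, 1125, 1871 and 1763 bp against 2064, 1835 and 2635 bp (0.520). Those ranges overlapped, as did those of Dnmt3b, Tet2 and Tet3, whose differences were 733 ± 596, 561 ± 546 and 367 ± 443 bp, those of Dnmt3b and Tet3 turning to −47.7 and −122 bp without WT2. Dnmt3c, named in the annotation as a synonym of Dnmt3b-ps1, was at 0 bp except for 354 bp in KO1. Mbd3 and Setd2 lay above WT on average, at 1642 ± 548 and 1743 ± 710 bp. Spocd1, which directs methylation of young transposons in these cells, had 1183, 1111 and 1069 bp against 319, 333 and 832 bp (0.381). Spocd1 was measured at a gene end.

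Germ cell and pluripotency lists are read beside the 9.14% of all coding genes above WT and 5.46% below. Of 21 primordial germ cell genes 7 lay above and 0 below, of 30 core pluripotency genes 9 and 1, of 22 Nodal and activin genes 6 and 2, of 56 meiotic genes 13 and 1, of 45 prospermatogonial and spermatogonial stem cell genes 8 and 3, and of 26 piRNA genes 5 and 2. Their median differences were 853, 579, 622, 267, 43.3 and 391 bp. Nanog, a pluripotency factor, had 1035, 1649 and 1257 bp in WT and 2315, 3238 and 4576 bp in KO (limma adjusted p = 0.179), and Dppa2 0 bp in every WT library and 1385, 1003 and 1430 bp in KO (0.141). Dppa3, a protector of methylation in the early embryo, had 1166, 3191 and 3055 bp against 3852, 4185 and 4924 bp (0.255), and Elavl2 a difference of 2493 ± 866 bp (SE) with overlap. Lefty1, an inhibitor of Nodal, had 0, 1237 and 1674 bp in WT and 3543, 2092 and 5116 bp in KO (0.185), in the list led by Skil and with Acvr1b behind. All 4 genes named with their values lay without overlap above WT, although Dppa2, Dppa3 and Lefty1 were measured at a gene end. Among germ cell lists the count above WT was 13 of 21 for primordial germ cell genes without KO1 and 4 with full lists.

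Among meiotic genes, Syce1, of the synaptonemal complex, had 0, 0 and 641 bp in WT and 1598, 1758 and 1530 bp in KO (limma adjusted p = 0.141). Bhmg1, which shares its peak with Fbxo46, and Tex15 followed with 1956 ± 471 and 1380 ± 343 bp (SE). The piRNA genes were split. Piwil1, a piRNA-binding protein of meiotic cells, had 1120, 902 and 1408 bp in WT and 429, 0 and 0 bp in KO (0.205), and Piwil4, the nuclear piRNA protein of prospermatogonia, 659, 860 and 1272 bp against 0, 0 and 672 bp, while Mybl1 lay 1080 ± 469 bp above. Rhox13, an X-linked homeobox gene of germ cells, led the prospermatogonial list with 0, 0 and 357 bp against 1081, 1151 and 1694 bp (0.172), before Dazl and Sox3. The members with the smallest p in the other direction were Tdgf1, Gdf1, Majin and, in the primordial germ cell list, Tfap2c at −73.3 ± 689 bp; apart from Majin their signs turned under other settings. Of these, Nanog (adjusted p = 0.0455), Dazl (0.0452) and Syce1 (0.0245) rose in the 9-library fit.

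Housekeeping lists had a larger share of members above WT than the 9.14% of all coding genes, by little for proteasome genes (10.2%), and a smaller share below than the 5.46% of all. Those shares of all genes are diluted by 5512 coding genes never marked in any library. Of genes with 26 or more CG 18.03% lay above WT. Proteasome and ubiquitin genes (14.3%) were under that share, and the other lists had 18.6% to 24.5%. Lists were not compared with other promoters of like CG content. Of 83 cytoplasmic ribosomal protein genes 17 lay above WT and 0 below, of 58 spliceosome genes 13 and 0, of 53 translation initiation genes 13 and 2, of 78 mitochondrial ribosomal genes 18 and 1, of 97 respiratory chain genes 18 and 2, of 66 RNA polymerase II, TFIID and Mediator genes 13 and 1, of 49 proteasome genes 5 and 1, and of 112 ubiquitin genes 16 and 1. Mean breadth per ribosomal protein gene was 1519, 1605 and 1849 bp in WT and 1875, 2323 and 2966 bp in KO, just clear of overlap through KO1. After Rps24 the list was led by Rpl4, whose peak is shared with Zwilch (0, 672 and 1116 bp against 2372, 2423 and 2646 bp; limma adjusted p = 0.137), and Rpl24, with Rpl39l first in the other direction at −542 ± 498 bp (SE). Among 68 clustered histone genes 14 lay above and 0 below, with H4c8 at 2982, 2317 and 1575 bp in WT and 3750, 5882 and 7553 bp in KO (0.168), then H2bc13 with H2ac13, which share a peak (2325 ± 596 bp, SE). H2bu2 had the smallest p in the other direction, at −476 ± 419 bp, which turned to 469 bp at 34950 peaks. Near-identical histone copies can share reads, so single histone genes are uncertain. Among spliceosome genes Srsf10, Srsf6 and Srsf3, all SR splicing factors, lay 1903 ± 473, 1598 ± 466 and 1449 ± 423 bp above WT, and Prpf31 at −400 ± 371 bp. Of the proteasome, Psma3 had 284, 158 and 2269 bp in WT and 2979, 3593 and 4266 bp in KO (0.141). Without KO1 the count above WT was 36 for ribosomal protein and 48 for histone genes, and with full lists 12 and 9. With all 9 libraries 8 of 82 ribosomal protein, 5 of 58 spliceosome and 5 of 63 histone genes rose and none fell. These histone genes are not separate cases. H2bc13 and H2ac13 share a peak, and H4c12, H2ac15 and H2bc15 had identical covered bp.

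**Figure D5:**
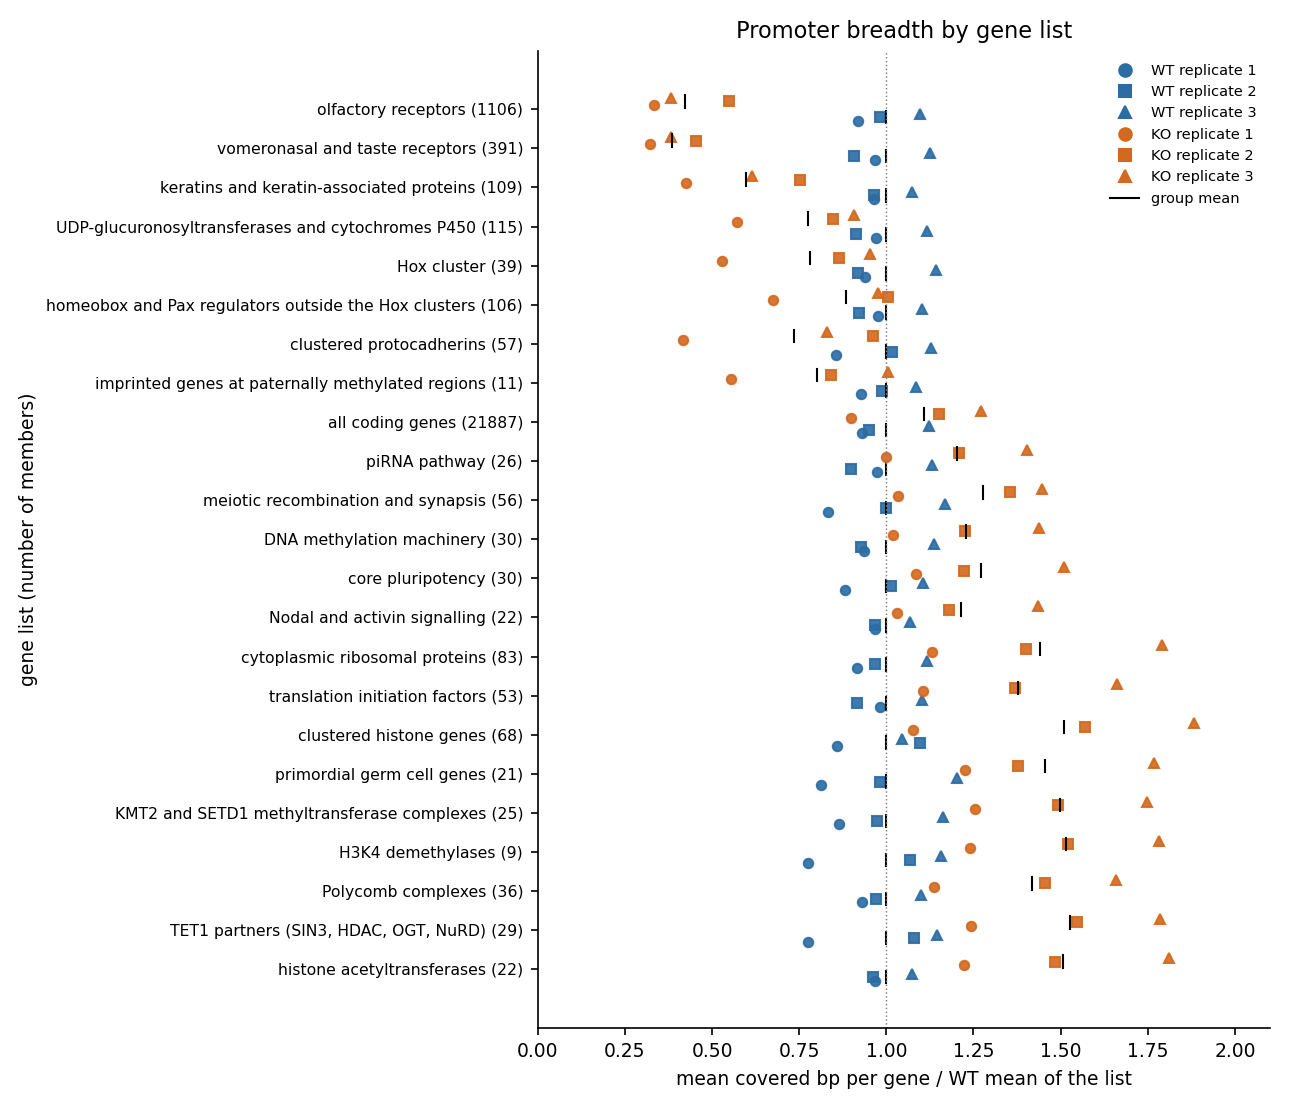
Mean covered bp per gene of 23 gene lists in each library, divided by the WT mean of the list. KO1 is the lowest KO library in nearly all lists, and olfactory receptors lie below WT in all 3 KO libraries.

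Hox, homeobox and bHLH regulators had more members below WT than above, unlike coding genes as a whole (5.46% below and 9.14% above), while forkhead and Sox, T-box and Gata genes did not. Of 39 Hox cluster genes 8 lay without overlap below WT and 0 above, with a median difference of −732 bp, and of 106 other homeobox and Pax genes 16 and 1 (−488 bp). Of 56 tissue-specific bHLH genes 9 were below and 2 above, and of 55 Wnt, Bmp, Fgf and hedgehog ligands 7 and 2. Of 44 forkhead genes 4 were below and 5 above, and of 42 Sox, T-box and Gata genes 1 and 3. Hoxd4 had 2996, 2488 and 2523 bp in WT and 738, 1174 and 955 bp in KO (limma adjusted p = 0.137), Hoxd12 5174, 5482 and 5871 bp against 1908, 3326 and 3204 bp (0.141), and Hoxb6 with Hoxb5 6014, 6191 and 5506 bp against 425, 4307 and 2636 bp (0.166). Even the broadest KO value of these genes was below the narrowest WT value. Hox promoters are broad and CpG-rich, and as a group they stayed marked in KO (35 to 37 of 39, against 37 or 38 in WT). Hoxb13 had the smallest p in the other direction, at 893 ± 914 bp (SE), or −18.5 bp without WT2. Nkx6-1 and Dlx4 led the homeobox list, at −2616 ± 686 and −1930 ± 562 bp, with Pou4f1 (1334 ± 476 bp) above WT and Hmx2 at 1410 ± 871 bp, or −787 bp with full lists.

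These lists leaned on KO1. Mean breadth per Hox gene was 3907, 3828 and 4749 bp in WT and 2201, 3599 and 3965 bp in KO, so the groups overlapped with KO1 lowest. The mean difference of −907 bp was −380 bp without KO1. For the other homeobox and Pax genes −513 bp became −46.5 bp, and for bHLH genes −309 bp became −21.7 bp. Without KO1 the sign turned for Sox, T-box and Gata genes (−156 to 254 bp), for the ligands (−146 to 87.8 bp) and for Sertoli (−148 to 112 bp) and Leydig and interstitial markers (−233 to 80.6 bp), and the forkhead mean went from 13.1 to 317 bp. The number of Hox genes below WT was 10 with full lists and 6 with equal covered length. With all 9 libraries Hoxd12 fell (adjusted p = 0.0338), as did Tbx5, of the T-box list (0.0497), and 0 of 105 other homeobox genes rose or fell. Of 41 forkhead genes 2 rose in that fit, Foxj3 (0.0303) and Foxo4 (0.0494), and 0 fell. Among bHLH genes Hes2, Neurod1 and Hand1 had the smallest p, with differences of −1966 ± 477, −1830 ± 537 and −2342 ± 760 bp (SE), and Sohlh1, a spermatogonial factor, lay at 937 ± 370 bp. Among the ligands Fgf6, Wnt8a and Fgf20 lay at −1268 ± 503, 885 ± 368 and −935 ± 410 bp and Wnt3 at 1950 ± 924 bp. Below WT lay 2 of 15 Sertoli, 2 of 17 Leydig and interstitial and 2 of 14 endothelial and blood markers. Above WT lay 0 of these markers of other testis cells, beside 5.46% of all coding genes below and 9.14% above. The part of these markers in the result was not tested.

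Families used in other tissues had few members above WT, beside 9.14% of all coding genes above and 5.46% below. Of 1106 olfactory receptor genes 89 (8.05%) were below and 0 above, and 942 had no promoter peak in any library. Mean breadth per gene was 180, 193 and 215 bp in WT and 65.6, 108 and 75.1 bp in KO, and marked members numbered 86, 99 and 96 against 56, 65 and 53, without overlap in either. Olfr796 had 1426, 1445 and 1404 bp in WT and 0, 369 and 0 bp in KO (limma adjusted p = 0.141), followed by Olfr606 (−1176 ± 302 bp, SE) and Olfr437 (−989 ± 260 bp), with Olfr1033 first in the other direction (210 ± 366 bp, or −73.0 bp with full lists). Of 109 keratin and keratin-associated genes 20 were below and 1 above, led by Krtap22-2 (1169, 1234 and 1642 bp against 354, 0 and 0 bp; 0.145), Krt81 and Krtap24-1, with Krt18 of simple epithelia 874 ± 477 bp (SE) above. Vomeronasal and taste receptors had 23 of 391 below (5.88%, near the share of all genes) and 1 above, with 371 never marked and 8 tested, and UDP-glucuronosyltransferases and cytochromes P450 11 of 115 and 0. The mean of each of these 4 families was below WT in every KO library and remained so in the average without KO1. The count below was 157 with full lists and 35 at 34950 peaks for olfactory receptors, and 23 and 10 for keratins. Members of these families resemble one another in sequence, so reads may be shared between copies.

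Genes of neural adhesion and excitability were counted in the same way. Beside the 5.46% of all coding genes below WT and 9.14% above, 14 of 57 clustered protocadherins lay below and 0 above. Of potassium, sodium and calcium channel genes, not all of them voltage-gated, the counts were 18 (14.6%) and 4, and of 51 glutamate, GABA and glycine receptor genes 6 and 0. Pcdhb21 and Pcdhb22, which share a peak, had 4078, 3774 and 3522 bp in WT and 1338, 2023 and 2425 bp in KO (limma adjusted p = 0.145), and Pcdhb2 3244, 3013 and 3870 bp against 891, 2566 and 854 bp (0.181). All WT values were above all KO values. Pcdhga1, which shares its peak with other genes of the gamma cluster in this annotation, had the smallest p in the other direction and differed by 239 ± 364 bp (SE), or −38.8 bp without WT1. With all 9 libraries 4 of 49 clustered protocadherins (8.16%) fell and none rose, beside 0.175% of all tested genes lower and 2.38% higher. Pcdhb21 and Pcdhb22, with their shared peak, were among those that fell. In that fit 1 of 41 receptor genes fell. Of 104 channel genes 3 (2.88%) rose and 0 fell, near the shares of all tested genes. The protocadherin mean was −518 bp, and −204 bp without KO1.

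Imprinted genes were mixed, read beside 9.14% of all coding genes above WT and 5.46% below. Of 11 genes at paternally methylated regions 2 lay below WT and 0 above, and of 41 at maternally methylated regions 1 and 5. Dlk1, a paternally expressed growth regulator, had 2644, 4346 and 4036 bp in WT and 1692, 2446 and 2660 bp in KO (limma adjusted p = 0.300), and its neighbour Meg3 3819, 3158 and 4542 bp against 0, 2499 and 3774 bp (0.386). Igf2 had 4361, 4780 and 5194 bp against 2526, 3962 and 4748 bp (0.509). All 3 overlapped between the genotypes, and KO1 was the lowest KO library in each. Zdbf2 lay at 168 ± 395 bp (SE), or −29.3 bp without WT1. Zrsr1 with its host Commd1 had 1997, 2386 and 1031 bp in WT and 2495, 3207 and 3622 bp in KO (0.297), followed by Nap1l5, with Zim1 at −623 ± 305 bp.

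The remaining lists are given for completeness, beside the 9.14% of all coding genes above WT and 5.46% below. Of 394 zinc finger genes with a Zfp symbol 37 lay above WT (9.39%, near the share of all genes) and 7 below (1.78%). Of 37 cell cycle genes 6 lay above and 1 below, and of 24 retinoic acid genes 3 and 3. Stra8, the retinoic acid target that starts meiosis, had 1833, 2010 and 2195 bp in WT and 2361, 3123 and 2793 bp in KO (limma adjusted p = 0.425). Of 35 other cadherins and protocadherins 7 lay below and 2 above, and of 40 sarcomere and cardiac muscle genes 4 and 0, led by Ankrd1 at 1680, 2974 and 1869 bp in WT and 0, 712 and 0 bp in KO (0.141). Ankrd1 fell in the 9-library fit (adjusted p = 0.0230).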

How the data were processed

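H3K4me3 CUT&RUN of 3 Tet1+/+ and 3 Tet1-/- replicates was compared. Per the submitters' processing notes, tools included MACS2 2.1.0, Bowtie2 2.5.0, deepTools 3.5.1, Trim Galore, bedtools 2.27.1 and SAMtools 1.16.1, and the build was mm10. The authors deposited 1 peak list per sample, each peak with a score, a fold enrichment ratio, −log10 p and −log10 q. Lists were cut to 69901 peaks by q, with the fold used only as a rank within a list, and merged (overlap of 1 bp) into regions, promoters being those within 1 kb of a coding gene's start (RefSeq, GRCm38.p6). Depth was not used here, as these lists carry none. Breadth and rank were tested with limma 3.58.1 (R 4.3.3) and checked on simulated data. Breadth was tested over features present in at least 3 lists, and rank over features with a peak in every list compared. Features present in a single genotype thus entered the breadth test through that genotype alone. Class values were compared by exact permutation test. Counts are of genes, so genes that share a peak are counted separately. Python 3.11.15, numpy 2.4.6, pandas 2.3.3, scipy 1.17.1 and matplotlib 3.10.9 were used. Named genes were those with the smallest p per fit (5 a direction) and per list (3, and 1 in the other direction), the TET and DNMT genes, and the 10 broadest promoters lost and gained. The 46 lists and the comparisons were chosen with earlier results of these data known, and 1 list symbol, Hop2, matched no gene. P-values measure the spread between these samples. Some items covered by these rules are not reported here.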

Additional observations from a re-analysis of the deposited data

How the results depend on the processing

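The percent of covered bp at promoters and in intergenic regions and the covered intergenic Mb kept their direction under full lists, 34950 peaks, the cut by fold enrichment, equal covered length and each left-out library, and the median ranks of the 3 classes kept theirs under the settings in which ranks were run. Numbers of regions and genes did not. With full lists KO minus WT turned to −552 promoter regions, −3217 gene body regions, −501 marked coding genes, −9.33 on the X chromosome and −492 elsewhere. Equal covered length turned intergenic regions to 499 and the gene body percent to −0.693, and 34950 peaks the latter to −2.17. Limma calls for promoter breadth (lower and higher) were 29 and 803 at 34950 peaks, 28 and 756 at equal covered length, 27 and 367 with 9 libraries, and 0 and 2 with the cut by fold enrichment; leaving out 1 library gave 0 lower and 0 to 1 higher. Region calls were 6156 and 192 with full lists, 875 and 786 at 34950 peaks, 715 and 382 with 9 libraries, 21 and 94 with centring and 861 and 512 with no filter. Promoters of coding genes lost and gained were 108 and 14 with full lists; 790 were gained at 34950 peaks, and 35 lost and 613 gained at equal covered length. Promoter regions were 123 and 20 with full lists, with 728 gained at 34950 peaks and 572 at equal covered length. Gene body regions were 1170 and 88, with 256 and 246 lost under those 2 settings, and intergenic regions 5515 and 102, with 1310 and 1202 lost. Leaving out 1 library gave 76 to 147 lost and 80 to 179 gained promoters, 74 to 158 and 89 to 188 promoter regions, 600 to 1095 and 352 to 837 gene body regions, and 3058 to 4876 and 481 to 1123 intergenic regions, where fewer libraries have to agree. Apart from that construction, the cause was not tested.

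Single genes also changed sign in KO minus WT breadth (bp). The sign turned with full lists for Hmx2 (−787), Olfr1033 (−73). The sign turned at 34950 peaks for H2bu2 (469), Gdf1 (344), Zfp57 (134), Kat6b (319). It also turned with the cut by fold enrichment for Gdf1 (80.7), at equal covered length for H2bu2 (598), Gdf1 (344), Zfp57 (134), Kat6b (319). Further turns came with 9 libraries in the fit for Olfr1033 (−51.7), Zfp57 (134), Kat6b (319), with centring for Dnmt3a (−207), Olfr1033 (−19), Zdbf2 (−61.4), with a window of 2 kb for Dnmt3a (−79.7), Tfap2c (54.7), Men1 (62), Kat6b (19.3). Leaving out 1 library gave Olfr1033 −6.67 to 515, Zfp57 −456 to 163, Kat6b −316 to 74, Dnmt3a −195 to 156, Zdbf2 −78.2 to 407, Tfap2c −634 to 415, Men1 −578 to 2.5, Pcdhga1 −38.8 to 450, Tet3 −122 to 661, Dnmt3b −47.7 to 1244, Hoxb13 −18.5 to 2049, Phf19 −539 to 34.7, Sin3b −298 to 102, Tdgf1 −1073 to 69.2. The deviations of same-numbered WT and KO libraries from their group means had a Pearson r of 0.0284, −0.0518 and 0.0404 over 15486 genes. With 3 libraries a group, this cannot show whether same-numbered samples were handled together. With the number as a replicate block limma again called 0 (smallest adjusted p = 0.122 for promoter breadth, 0.325 for promoter rank, 0.123 for region breadth and 0.390 for region rank). Ranks were not run for full lists and lists of equal covered length, whose peak numbers differ. The lists carry no read depth, so what depth limits was not measured.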
